A study of Sus scrofa with 6 samples.

Results

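The nuclear factor I (NFI) family has 4 genes, NFIA, NFIB, NFIC and NFIX, and the regions described here are the stretches of open chromatin in and around them. A region is the union of overlapping peaks of 6 single-cell ATAC-seq libraries of pig embryos. A region belonged to the family when it overlapped the body of 1 of the 4 genes, or when it lay within 300 kb of one and overlapped no other gene body of the RefSeq annotation of Sscrofa11.1. This gave 340 of 294825 regions, 147 for NFIA, 128 for NFIB, 33 for NFIC and 32 for NFIX, of which 169 lay in the gene bodies and 171 in the flanks. The family was chosen because its accessibility was known to rise with stage in these libraries, so its stage values are a description and carry no test. The breeds, the cell clusters and the sequences had no part in the choice.

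The libraries came from somites at embryonic day 18 (E18), somites at E21 and myotomes at E28, in Tibetan pigs (ZZ) and in Duroc by Tibetan crosses (DZ). Each library was made from a pool of 5 embryos of the same sow, and there was 1 library for each stage and breed. No treatment or genetic change was applied. The E28 tissue differs from the E18 and E21 tissue as well as in age, so age and tissue cannot be told apart there, and breed and sow cannot be told apart at any stage. Of 64439 barcodes, 58809 held between 2000 and 30000 counts and were kept, among them 1921 barcode names that occurred in more than 1 library. The kept counts in peaks ran from 89816504 to 133037579 per library, and the number of peaks fell from 217138 in E18 ZZ to 131975 in E28 ZZ. Levels are given as CPM, counts per 1000000 kept counts of a library. Counts were deposited for called peaks, so a value of 0 means that no peak was called in that library. Throughout, values at a stage are given for ZZ first and then for DZ.

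NFI proteins are transcription factors that bind DNA as dimers at the palindrome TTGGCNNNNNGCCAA, and also at a single arm of it, TTGGC. NFIX is known for the switch from the embryonic to the fetal programme of skeletal muscle, NFIA and NFIB for the onset of gliogenesis in the neural tube, NFIB for lung maturation and NFIC for the formation of tooth roots. In the pig annotation NFIA lies on the minus strand at chr6:150834002-151229773, NFIB on the plus strand at chr1:208182397-208427504, NFIC on the minus strand at chr2:75193113-75262490 and NFIX on the minus strand at chr2:65954808-66056591. A region is named below by its gene and the distance from that gene's start, positive in the direction of transcription.

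Part of 4 regions that carry the stage pattern is printed below, read from the RefSeq genome of Sscrofa11.1 on the plus strand. It is the middle 300 bases of the longest stretch that peaks of all 6 libraries cover. NFIB +291 kb (chr1:208473285-208473584) and NFIB -106 kb (chr1:208075888-208076187) are intergenic regions that opened with stage. NFIA +391 kb (chr6:150838735-150839034) is an intronic region that opened. NFIA +78 kb (chr6:151150669-151150968) is an intronic region that closed. Capitals mark matches, on either strand, to the motifs searched, which are spelled out with their frequencies at the end.
NFIB +291 kb: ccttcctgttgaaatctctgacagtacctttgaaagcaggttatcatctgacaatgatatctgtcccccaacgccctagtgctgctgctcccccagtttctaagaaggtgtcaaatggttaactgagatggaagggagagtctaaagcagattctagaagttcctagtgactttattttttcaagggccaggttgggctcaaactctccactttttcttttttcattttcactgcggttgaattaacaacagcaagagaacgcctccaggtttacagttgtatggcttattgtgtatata
NFIB -106 kb: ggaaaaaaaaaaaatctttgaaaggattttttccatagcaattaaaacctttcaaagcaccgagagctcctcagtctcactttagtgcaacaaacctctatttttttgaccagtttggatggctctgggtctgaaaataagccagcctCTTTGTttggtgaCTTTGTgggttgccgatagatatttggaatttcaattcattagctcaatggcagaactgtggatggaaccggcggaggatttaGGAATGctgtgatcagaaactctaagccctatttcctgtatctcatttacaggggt
NFIA +391 kb: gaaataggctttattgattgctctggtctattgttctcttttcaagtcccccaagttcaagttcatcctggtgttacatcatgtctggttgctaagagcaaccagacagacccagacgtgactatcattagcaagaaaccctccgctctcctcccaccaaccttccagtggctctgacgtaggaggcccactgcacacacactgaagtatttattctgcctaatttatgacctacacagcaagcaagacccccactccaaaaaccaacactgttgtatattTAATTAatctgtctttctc
NFIA +78 kb: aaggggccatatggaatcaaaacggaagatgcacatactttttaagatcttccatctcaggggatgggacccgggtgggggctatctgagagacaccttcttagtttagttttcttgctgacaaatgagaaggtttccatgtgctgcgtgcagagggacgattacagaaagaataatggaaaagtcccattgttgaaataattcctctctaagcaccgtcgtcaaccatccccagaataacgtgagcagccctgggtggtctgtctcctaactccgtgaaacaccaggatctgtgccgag

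All 4 genes were more accessible at E28 than at E18 when the counts of their peaks were summed, in both breeds, and NFIB changed most. NFIB had 238 and 246 CPM at E18, 350 and 421 CPM at E21, and 531 and 513 CPM at E28. NFIA had 390 and 386 CPM at E18, 553 and 617 CPM at E21, and 611 and 625 CPM at E28. For NFIA most of the difference was already present at E21. NFIX had 277 and 281 CPM at E18, 361 and 324 CPM at E21, and 414 and 329 CPM at E28, so that its E28 DZ library lay within the range of the E21 libraries. NFIC, the least accessible in sum, had 147 and 135 CPM at E18, 183 and 165 CPM at E21, and 198 and 187 CPM at E28. For each of the 4 genes the 2 libraries of E18 lay below all 4 later libraries. How often this holds over all genes was not computed, and nothing is read from it.

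These sums depend on how much sequence was called as a peak. The peaks of NFIB covered 59.9 and 55.5 kb at E18 and 55.3 and 55.9 kb at E28, so the covered length of NFIB was almost the same while its counts rose from 529 and 552 to 863 and 905 per kb. NFIX peaks covered 63.4 and 59.7 kb at E18 and 43.7 and 43.4 kb at E28, with 581 and 587 counts per kb at E18 and 851 and 749 at E28. NFIA peaks covered 83.2 and 70.5 kb at E18 and 68.4 and 72.6 kb at E28, with 623 and 683 counts per kb at E18 and 802 and 849 at E28. NFIC moved least, from 683 and 682 counts per kb at E18 to 743 and 761 at E28. These are raw counts, not scaled for library depth. All peaks of a library covered 191 and 168 Mb at E18 and 102 and 108 Mb at E28. Their counts fell by a smaller share, from 133037579 and 124725894 to 89816504 and 98654857. Counts per kb thus rose over all peaks too, and the rises here are not read as particular to these genes.

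**Figure D1:**
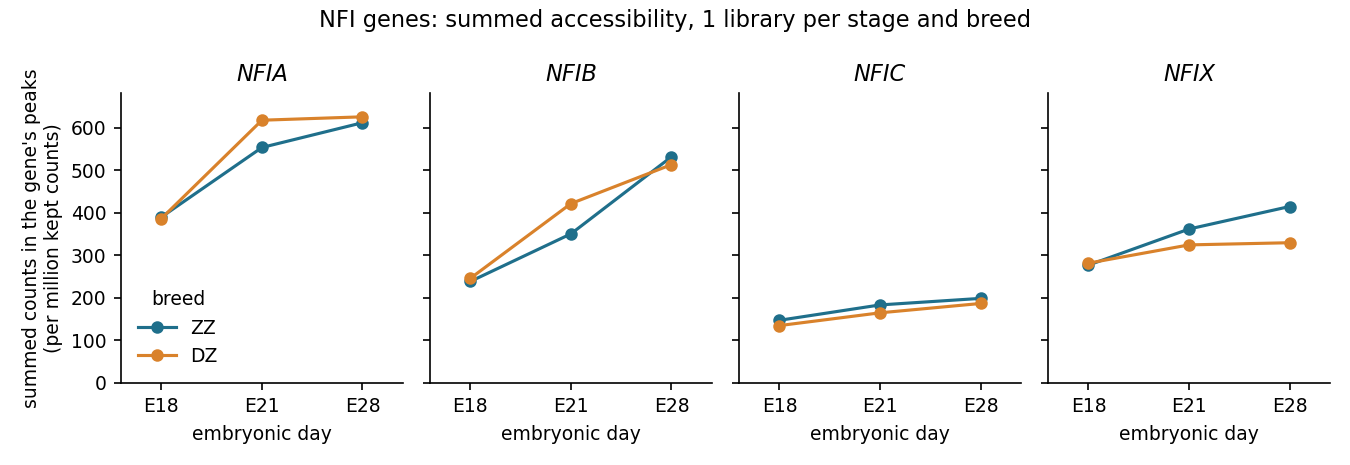
Summed counts in the peaks of each NFI gene, in CPM, against embryonic day, with 1 point for each library (ZZ blue, DZ orange). NFIB rises from 238 and 246 at E18 to 531 and 513 at E28, and NFIX reaches 414 in E28 ZZ and 329 in E28 DZ.

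Changes were fitted with edgeR over the 78533 regions that held a peak of all 6 libraries, 113 of them NFI regions (NFIA 41, NFIB 35, NFIC 15, NFIX 22). From E18 to E28, 42 of the 113 were called higher and 10 lower at an adjusted p under 0.05, against 19% higher and 18.1% lower over all regions. As this rise was known when the family was chosen, these counts and the stage counts that follow describe its members and are no evidence of the rise. The median log2 change was 0.46 for the NFI regions and -0.02 for all regions. NFIB had 18 higher and 4 lower of 35 (median log2 change 1.01), NFIA 15 higher and 4 lower of 41 (0.48), NFIX 5 higher and 1 lower of 22 (0.38) and NFIC 4 higher and 1 lower of 15 (0.08). Without the E18 DZ library 19 of the 113 were called higher and 6 lower, beside 6.19% and 4.93% of all regions. Among regions whose covered length at E18 and E28 lay within 1.5 times, 25 of 67 NFI regions were higher and 1 was lower, beside 21.8% and 4.81% of 43917 regions.

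Part of the change was made by E21. From E18 to E21, 18 of the 113 were called higher and 1 lower, against 4.80% and 1.78% over all regions, with a median log2 change of 0.40. NFIB had 11 of the 18 and NFIA had 5. From E21 to E28, 8 were called higher and 9 lower, against 2.53% and 4.61%, with a median of 0.11. Leaving out either E21 library left no NFI region called higher between E18 and E21, beside 0% of all regions, and leaving out E18 DZ left 2, beside 0.214% of all. The calls from E21 to E28 were lost in the same way, with none of the 113 called in either direction without either E21 library, beside 0% of all regions. The 42 regions that were higher at E28 rose in both breeds, and their median share of the log2 change already made by E21 was 67.2%. The 10 regions that were lower at E28 fell in both breeds and mostly after E21, with a median share of 21.3% by E21. These shares, and the like direction in both breeds, were not computed over all called regions. Over all regions too, more were called higher than lower by E21, and more lower than higher after it.

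Called regions lay both within the gene bodies and in the flanks. In the bodies 24 of 52 tested regions were higher and 3 lower at E28, with a median log2 change of 0.61, and in the flanks 18 of 61 were higher and 7 lower, with a median of 0.37. Of the 7 tested promoter regions, which overlap an annotated transcript start, 5 were higher and none was lower. Of 34 intronic regions, 17 were higher and 2 were lower. These counts stand beside the 19% and 18.1% over all regions, the same shares were not computed for all body, promoter or intronic regions, and nothing is read from them about these classes.

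**Figure D2:**
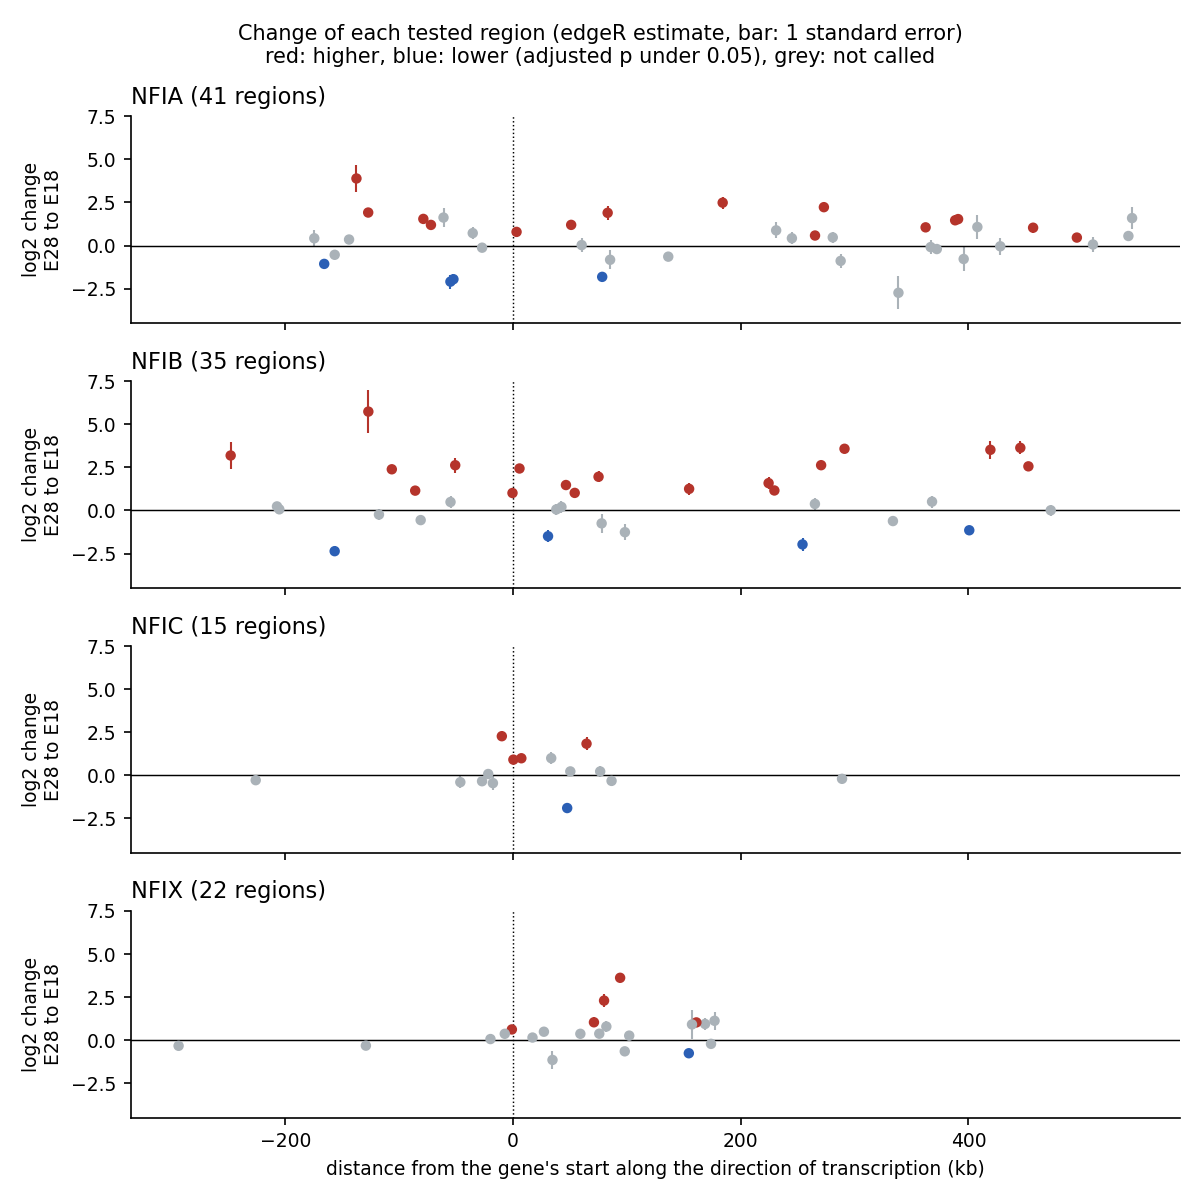
Fitted log2 change from E18 to E28 of each tested NFI region against the distance from the start of its gene in kb, with 1 panel per gene, bars of 1 standard error, and called regions in red (higher) or blue (lower). Called rises are spread over the windows of NFIA and NFIB, with 15 and 18 of them, and NFIC and NFIX have 4 and 5.

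NFIB held the largest changes among regions of like covered length. The region NFIB +291 kb (chr1:208472680-208474490), beyond the 3' end of the gene, had 2.41 and 2.54 CPM at E18, 7.38 and 9.70 CPM at E21, and 29.0 and 32.3 CPM at E28. Each stage stood clear of the one before it, with a fitted log2 change from E18 to E28 of 3.58 ± 0.20 (standard error). NFIB -106 kb (chr1:208074920-208076992), upstream of the gene, had 4.63 and 4.01 CPM at E18, 13.7 and 16.8 CPM at E21, and 22.2 and 24.8 CPM at E28. It moved earlier than NFIB +291 kb, with a log2 change of 1.74 by E21 of 2.39 ± 0.22 in all, beside 1.71 of 3.58. NFIB +453 kb had 2.88 and 3.30 CPM at E18, 7.12 and 8.78 CPM at E21, and 16.9 and 20.8 CPM at E28. The promoter region, NFIB -0.5 kb, was the most accessible of these, with 44.9 and 45.7 CPM at E18, 66.7 and 74.8 CPM at E21, and 95.3 and 93.5 CPM at E28. Its log2 change was 1.01 ± 0.09. The distal regions above were named for the size of their change, so theirs are not compared with it. NFIB +47 kb, in an intron, rose by E21 in both breeds, then rose further in ZZ and fell in DZ. It had 12.8 and 11.2 CPM at E18, 25.8 and 37.7 CPM at E21, and 39.6 and 29.4 CPM at E28. NFIB -127 kb, chosen after its values were seen, had the largest fitted change, 5.74 ± 1.24, but only 1.01 and 0.016 CPM at E18 against 15.3 and 18.3 CPM at E28.

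In sum NFIA rose mostly by E21, but its called rises were no earlier than those of NFIB. The median share of their log2 change made by E21 was 68.6% for NFIA and 72.2% for NFIB. The intronic region NFIA +391 kb (chr6:150837672-150839957), near the 3' end of NFIA, had 18.9 and 18.7 CPM at E18, 52.8 and 62.8 CPM at E21, and 54.1 and 58.6 CPM at E28. The E21 and E28 values overlapped, and the fitted log2 change was 1.55 ± 0.12 by E21 and 1.54 ± 0.12 by E28. The region at the start of the gene, NFIA +3.1 kb, had 63.1 and 60.1 CPM at E18, 87.1 and 92.1 CPM at E21, and 116 and 105 CPM at E28, a log2 change of 0.79 ± 0.09. It was the most accessible NFIA region and rose at both steps in both breeds. Upstream, NFIA -127 kb and NFIA -79 kb were higher at E28 by 1.92 ± 0.26 and 1.55 ± 0.23 on the log2 scale. NFIA -61 kb (1.63 ± 0.54) and NFIA +544 kb (1.60 ± 0.66) had changes of similar size that did not pass the threshold. NFIA -138 kb, chosen after its values were seen, went from 1.02 and 0.112 CPM at E18 to 7.10 and 5.85 CPM at E28.

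**Figure D3:**
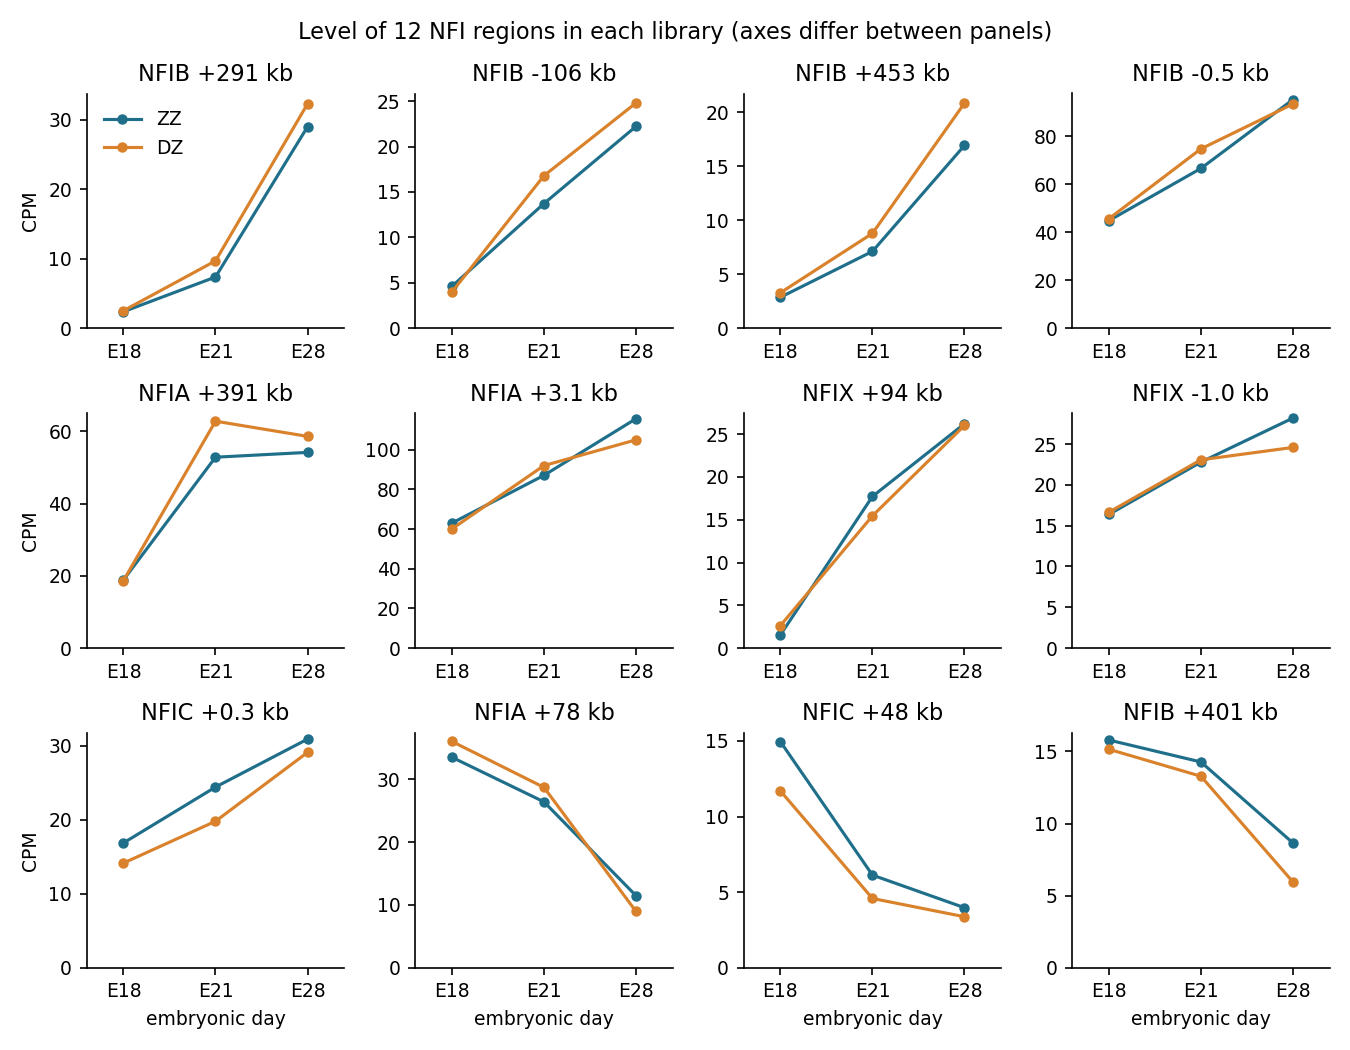
Level of 12 NFI regions in CPM against embryonic day, with 1 point for each library (ZZ blue, DZ orange) and a separate axis from 0 for each panel. NFIA +391 kb reaches its level at E21, at 52.8 and 62.8 CPM, while NFIB +291 kb goes from 7.38 and 9.70 CPM at E21 to 29.0 and 32.3 CPM at E28.

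NFIX, the member best known in muscle, had its largest changes among the named regions at NFIX +94 kb and NFIX +80 kb, in introns. Such regions were named for their change and the promoters for their position, so they are not compared. NFIX +94 kb, chosen after its values were seen, had 1.55 and 2.63 CPM at E18, 17.7 and 15.5 CPM at E21, and 26.2 and 26.0 CPM at E28. The stages did not overlap, and the fitted log2 change was 2.95 by E21 and 3.62 ± 0.27 by E28. NFIX +80 kb opened later, by 2.30 ± 0.38 on the log2 scale at E28 with 0.54 of this by E21. NFIX +71 kb (1.04 ± 0.30) and, beyond the 3' end, NFIX +161 kb (1.04 ± 0.27) were also called higher, the former with 23.1 CPM in E28 ZZ and 10.6 CPM in E28 DZ. NFIX +177 kb (1.13 ± 0.52) was not. The promoter NFIX -1.0 kb had 16.4 and 16.7 CPM at E18, 22.8 and 23.1 CPM at E21, and 28.2 and 24.6 CPM at E28, a change of 0.63 ± 0.13. Over only the peaks that overlap 2 kb before to 200 bp after the gene's start, the change was 0.02 ± 0.10 and not called. The other promoters, NFIX +27 kb (0.50 ± 0.20) and NFIX +17 kb (0.16 ± 0.23), did not pass the threshold. The most accessible region, NFIX +59 kb, had 72.0 and 75.5 CPM at E18, 97.2 and 108 CPM at E21, and 119 and 80.4 CPM at E28, and did not pass it either (0.37 ± 0.17). Its E28 DZ value lay below both E21 values.

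NFIC had called rises at its starts and at other regions. The promoter region NFIC +0.3 kb had 16.9 and 14.2 CPM at E18, 24.4 and 19.8 CPM at E21, and 30.9 and 29.1 CPM at E28, a log2 change of 0.91 ± 0.14. A second promoter region, NFIC +7.3 kb, had 10.2 and 8.59 CPM at E18, 11.7 and 10.7 CPM at E21, and 20.5 and 18.1 CPM at E28, a change of 0.99 ± 0.17, of which 0.19 came by E21. NFIC +65 kb, in an intron, was highest at E21, with 2.68 and 1.18 CPM at E18, 15.0 and 7.71 CPM at E21, and 6.41 and 6.54 CPM at E28. Upstream, NFIC -9.8 kb, chosen after its values were seen, opened after E21, from 1.46 and 1.76 CPM at E18 and 1.98 and 1.74 CPM at E21 to 7.48 and 8.50 CPM at E28. NFIC +34 kb (log2 change 1.0 ± 0.34) and NFIC -18 kb (-0.45 ± 0.39) did not pass the threshold. The most accessible NFIC region, NFIC +50 kb in an exon, stayed between 42.2 and 55.8 CPM in the 6 libraries, with a change of 0.23 ± 0.10. NFIC +4.2 kb, also a promoter region, held a peak in the E28 DZ library alone, at 1.16 CPM.

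Some regions of the same genes closed. NFIA +78 kb (chr6:151149422-151153420), in an intron, had 33.5 and 36.0 CPM at E18, 26.4 and 28.7 CPM at E21, and 11.5 and 8.97 CPM at E28, a log2 change of -1.81 ± 0.15. NFIB +401 kb had 15.8 and 15.1 CPM at E18, 14.3 and 13.3 CPM at E21, and 8.65 and 5.95 CPM at E28, a change of -1.15 ± 0.20. Both fell mainly between E21 and E28. NFIC +48 kb, in an exon, fell earlier, from 14.9 and 11.7 CPM at E18 to 6.13 and 4.58 CPM at E21 and 3.97 and 3.38 CPM at E28. NFIB -157 kb fell by 2.36 ± 0.29 on the log2 scale and NFIA -55 kb by 2.09 ± 0.40. The called peak of NFIB -157 kb shortened with stage. With log covered length as an offset its change was 0.17, beside a median of 0.43 over all regions. NFIX +154 kb went from 49.7 and 48.1 CPM at E18 to 39.1 and 22.7 CPM at E28, a change of -0.75 ± 0.16. All of these except NFIX +154 kb were named after their values were seen. Of the 10 regions that were lower, 1 kept its covered length within 1.5 times, so in most of them the called peak also became shorter.

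Regions that were absent at E18 were not in the region fits. A peak in both E28 libraries and in neither E18 library was found in 31 of the 340 NFI regions (9.12%), beside 6.71% of all regions. They were 17 NFIA and 14 NFIB regions, with none for NFIC or NFIX. The most accessible was NFIA +537 kb (chr6:150691540-150693268), with 11.8 and 15.6 CPM at E21 and 29.2 and 30.2 CPM at E28. NFIB +522 kb had no peak in E21 ZZ, 1.18 CPM in E21 DZ, and 17.7 and 11.6 CPM at E28. NFIB +131 kb, in an intron, had 1.65 and 3.27 CPM at E21 and 11.6 and 12.9 CPM at E28. The converse, a peak in both E18 libraries and in neither E28 library, held for 54 NFI regions (15.9%), beside 26.6% of all regions.

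No NFI region was called between the breeds. Over the 113 regions the lowest adjusted p between DZ and ZZ was 0.846 (edgeR), the share called among all regions was 0%, and 6 had an unadjusted p under 0.05 (5.31%), beside 4.94% of all regions. DESeq2 called none either. The fitted log2 differences ran from -1.42 to 1.11 with a median of 0.03. The median absolute log2 ratio of DZ to ZZ over the 113 regions was 0.19 at E18, 0.26 at E21 and 0.32 at E28. With 1 library per stage and breed, a breed difference at a single stage was not tested, and the lower NFIX sum of E28 DZ is a value of 1 library.

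The share of barcodes with a count in a region was taken as a second measure. For NFIB +291 kb it was 1.47% (95% Wilson interval 1.26 to 1.71) in E18 ZZ and 12.3% (11.7 to 13.0) in E28 ZZ, and 1.73% and 14.6% in the DZ libraries. For NFIX +94 kb it was 1.03% and 1.66% at E18 and 10.8% and 11.6% at E28. For NFIA +78 kb it went down from 17.0% and 18.8% to 5.20% and 4.58%. It did not follow the CPM for every region. For NFIC +50 kb it was 22.2% and 22.5% at E18 and 21.8% and 20.7% at E28. The E28 barcodes were shallower, with medians of 8084.5 and 8781.5 counts beside 10913 and 11452 at E18. At a fixed 4000 counts per barcode, with 468 to 1685 shallower barcodes per library left out, the expected shares for NFIB +291 kb were 0.518% and 0.590% for E18, then 1.35% and 1.97% for E21, and 5.73% and 6.27% for E28. The promoter NFIB -0.5 kb went from 8.44% and 8.55% to 17.1% and 16.6% on the same footing, and NFIC +50 kb from 8.41% and 8.25% to 10.4% and 9.27%. The intervals cover counting error only.

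To see in which cells the regions opened, barcodes were grouped into 7 clusters from regions of chromosomes that hold no NFI gene. By the marker genes raised in them, 5 clusters were muscle-like (6867 cells, 8 of 8 markers), neural progenitor-like (9555 cells, 6 of 8), epithelial-like (8581 cells, 6 of 8), neuron-like (2925 cells, 6 of 7) and endothelial-like (1636 cells, 6 of 7). Cluster 0 (23571 cells) had 4 of 8 fibroblast and mesenchyme and 4 of 8 sclerotome and cartilage markers raised, cluster 4 (5674 cells) had 3 of 8 of the former, and neither was named. The make-up of the libraries changed with stage. Cluster 0 rose from 21.1% and 16.7% of cells at E18 to 57.5% and 67.8% at E28, muscle-like cells were 6.99% and 7.02% at E18 and 14.7% and 22.3% at E28, and epithelial-like cells were 41.6% and 31.3% at E18 and 1.63% and 1.23% at E28. Cluster 4 held 2033 cells of E28 ZZ and 322 of E28 DZ.

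The same counts were then split by cluster, as a further description of the rise by which the family was chosen. The log2 ratio of summed CPM over the tested regions, E28 to E18, was above 0 in all 14 pairs of cluster and breed for NFIA (0.06 to 0.93) and for NFIC (0.11 to 0.67), and in 13 of 14 for NFIB (-0.09 to 1.34) and for NFIX (-0.16 to 0.63). Most other genes also lay above 0 on this scale. Over 1595 genes whose tested regions held a mean of at least 100 CPM over the libraries, 59.8% to 77.6% had a ratio above 0 in a pair, and the median log2 ratio was 0.12 to 0.37. The tested regions together took 81.7% and 82.0% of the counts at E18 and 90.6% and 87.9% at E28. Of the 14 pairs, NFIA lay above the median of these genes in 10, NFIB in 12, NFIC in 11 and NFIX in 7. In muscle-like cells NFIB had 230 and 266 CPM at E18, 355 and 364 CPM at E21, and 391 and 381 CPM at E28, and NFIX had 274 and 270 CPM at E18, 293 and 254 CPM at E21, and 332 and 319 CPM at E28. NFIB thus rose by E21 there, with log2 ratios of 0.76 and 0.52 by E28. Those of NFIX, 0.28 and 0.24, did not exceed the medians of the 1595 genes in these cells, 0.28 and 0.27. In cluster 0 NFIB had 248 and 250 CPM at E18 and 443 and 429 CPM at E28, and in neural progenitor-like cells 125 and 137 CPM at E18 and 240 and 348 CPM at E28. NFIA was highest in neural progenitor-like cells at E28, at 611 and 661 CPM. NFIC stood above the other cells of the same library in epithelial-like and endothelial-like cells in 6 of 6 libraries. The E28 neural progenitor-like cells number 180 and 212.

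**Figure D4:**
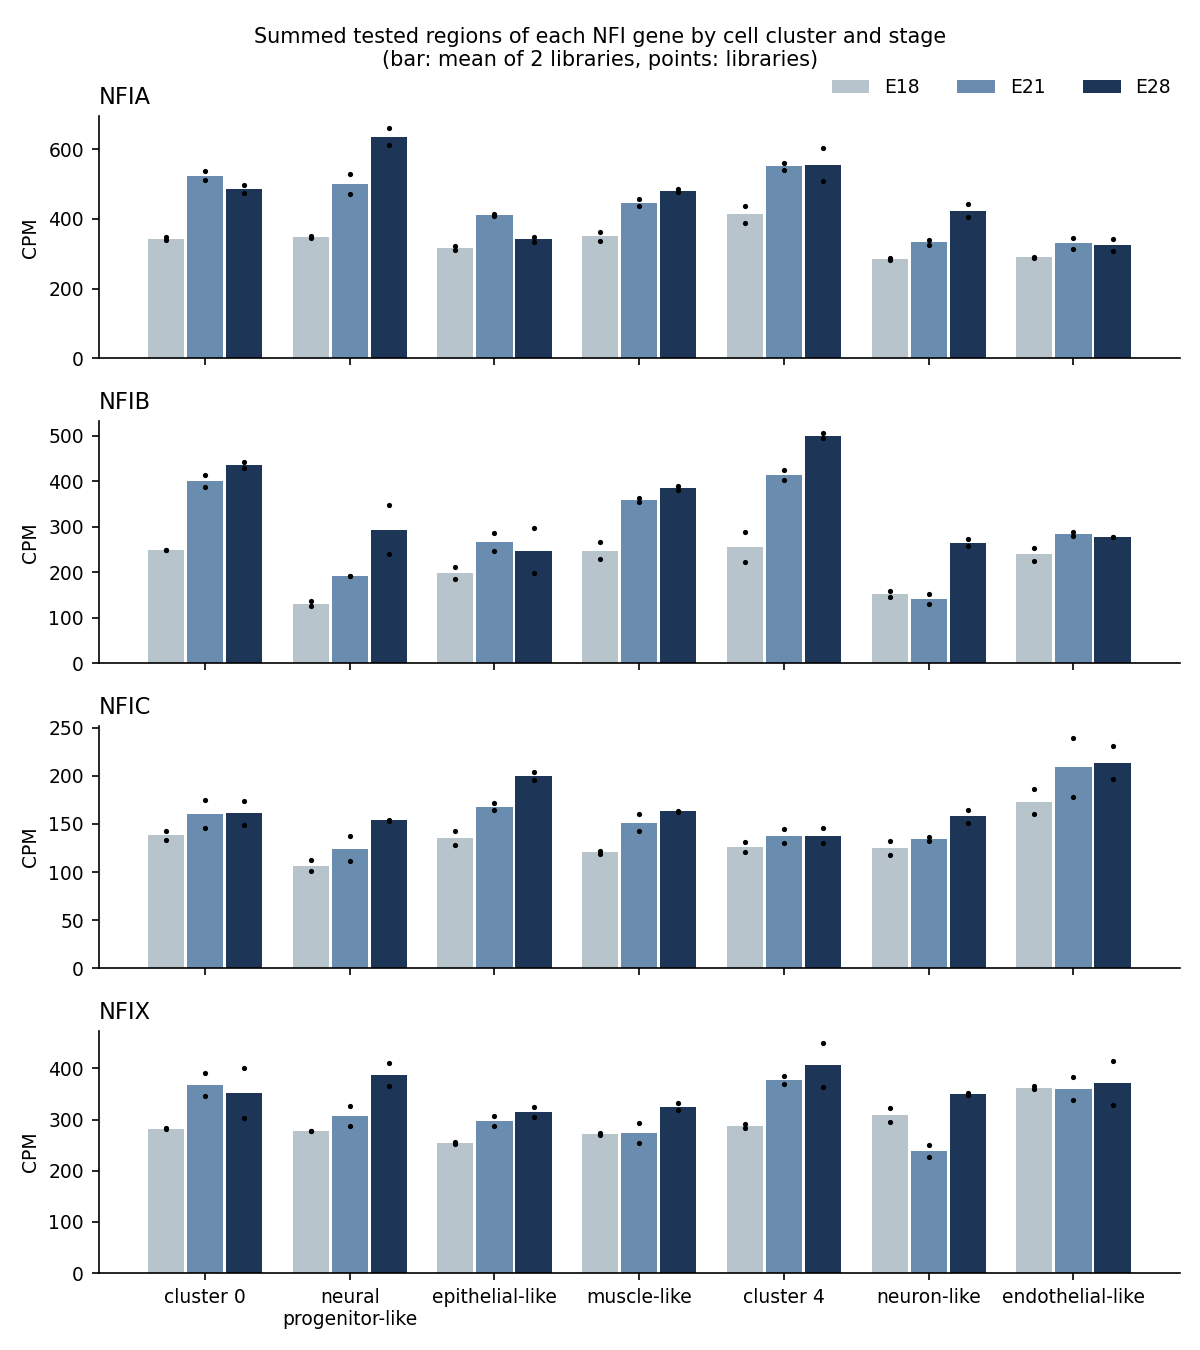
Summed CPM of the tested regions of each NFI gene in the 7 cell clusters at E18, E21 and E28, with bars for the mean of the 2 libraries of a stage and points for the libraries. In muscle-like cells NFIB goes from 230 and 266 CPM at E18 to 391 and 381 CPM at E28, and in endothelial-like cells from 225 and 254 CPM to 277 and 278 CPM.

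When the share of every cluster was held at its mean over the libraries, the mean log2 ratio of E28 to E18 became 0.78 in place of 1.13 for NFIB, 0.51 in place of 0.54 for NFIA, 0.35 in place of 0.34 for NFIC and 0.34 in place of 0.36 for NFIX. Single regions behaved differently from each other. NFIB +291 kb had 3.22 in place of 3.63 on the log2 scale, NFIX +94 kb 3.37 in place of 3.69, NFIB -106 kb 2.05 in place of 2.45 and the NFIB promoter 1.02 in place of 1.06. The difference was larger for NFIB +47 kb (0.45 in place of 1.52), NFIB +225 kb (0.88 in place of 1.61) and NFIA +544 kb (0.74 in place of 1.66). It was also larger for NFIB +453 kb (1.85 in place of 2.61). NFIA +391 kb went the other way, with 1.71 in place of 1.59.

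NFIB +47 kb was accessible in both unnamed clusters at every stage. Cluster 0 had 29.2 and 35.3 CPM at E18, 35.2 and 40.1 CPM at E21, and 38.7 and 32.8 CPM at E28. Cluster 4 had 33.7 and 29.3 CPM at E18, 56.7 and 70.1 CPM at E21, and 59.6 and 58.2 CPM at E28. In neural progenitor-like cells it had 4.0 and 2.81 CPM at E18 and 6.94 and 8.04 CPM at E28. Between cluster 0 and the neural progenitor-like cells its level differed more than between stages within either. NFIB -106 kb had 7.40 and 6.49 CPM at E18 and 30.6 and 31.6 CPM at E28 in cluster 0, but in muscle-like cells 4.60 and 4.59 CPM at E18, 5.14 and 4.40 CPM at E21, and 10.1 and 9.58 CPM at E28. It therefore opened in cluster 0 by E21, at 26.2 and 28.9 CPM, and in muscle-like cells only at E28.

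NFIB +291 kb opened in both. It went from 2.96 and 2.42 CPM at E18 to 32.4 and 37.7 CPM at E28 in cluster 0, and from 5.30 and 3.13 CPM to 20.7 and 21.0 CPM in muscle-like cells. In endothelial-like cells it held 4.35 and 5.52 CPM at E28, from 10 counts in each library. NFIX +94 kb in muscle-like cells had 0.80 and 1.23 CPM at E18, 8.11 and 7.31 CPM at E21, and 18.6 and 21.1 CPM at E28, while in neural progenitor-like cells it had reached 23.5 and 25.8 CPM by E21. The 8 and 11 counts behind the E18 values of muscle-like cells are few. NFIA +391 kb in muscle-like cells had 10.2 and 9.17 CPM at E18, 46.1 and 49.1 CPM at E21, and 57.9 and 63.6 CPM at E28, so that the step before E21 was seen in muscle-like cells too. NFIA +78 kb was most accessible in neural progenitor-like cells in all 6 libraries apart from E18 DZ, where cluster 4 had 50.8 CPM from 78 counts, and it closed there from 50.5 and 46.6 CPM at E18 to 23.8 and 25 CPM at E28.

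**Figure D5:**
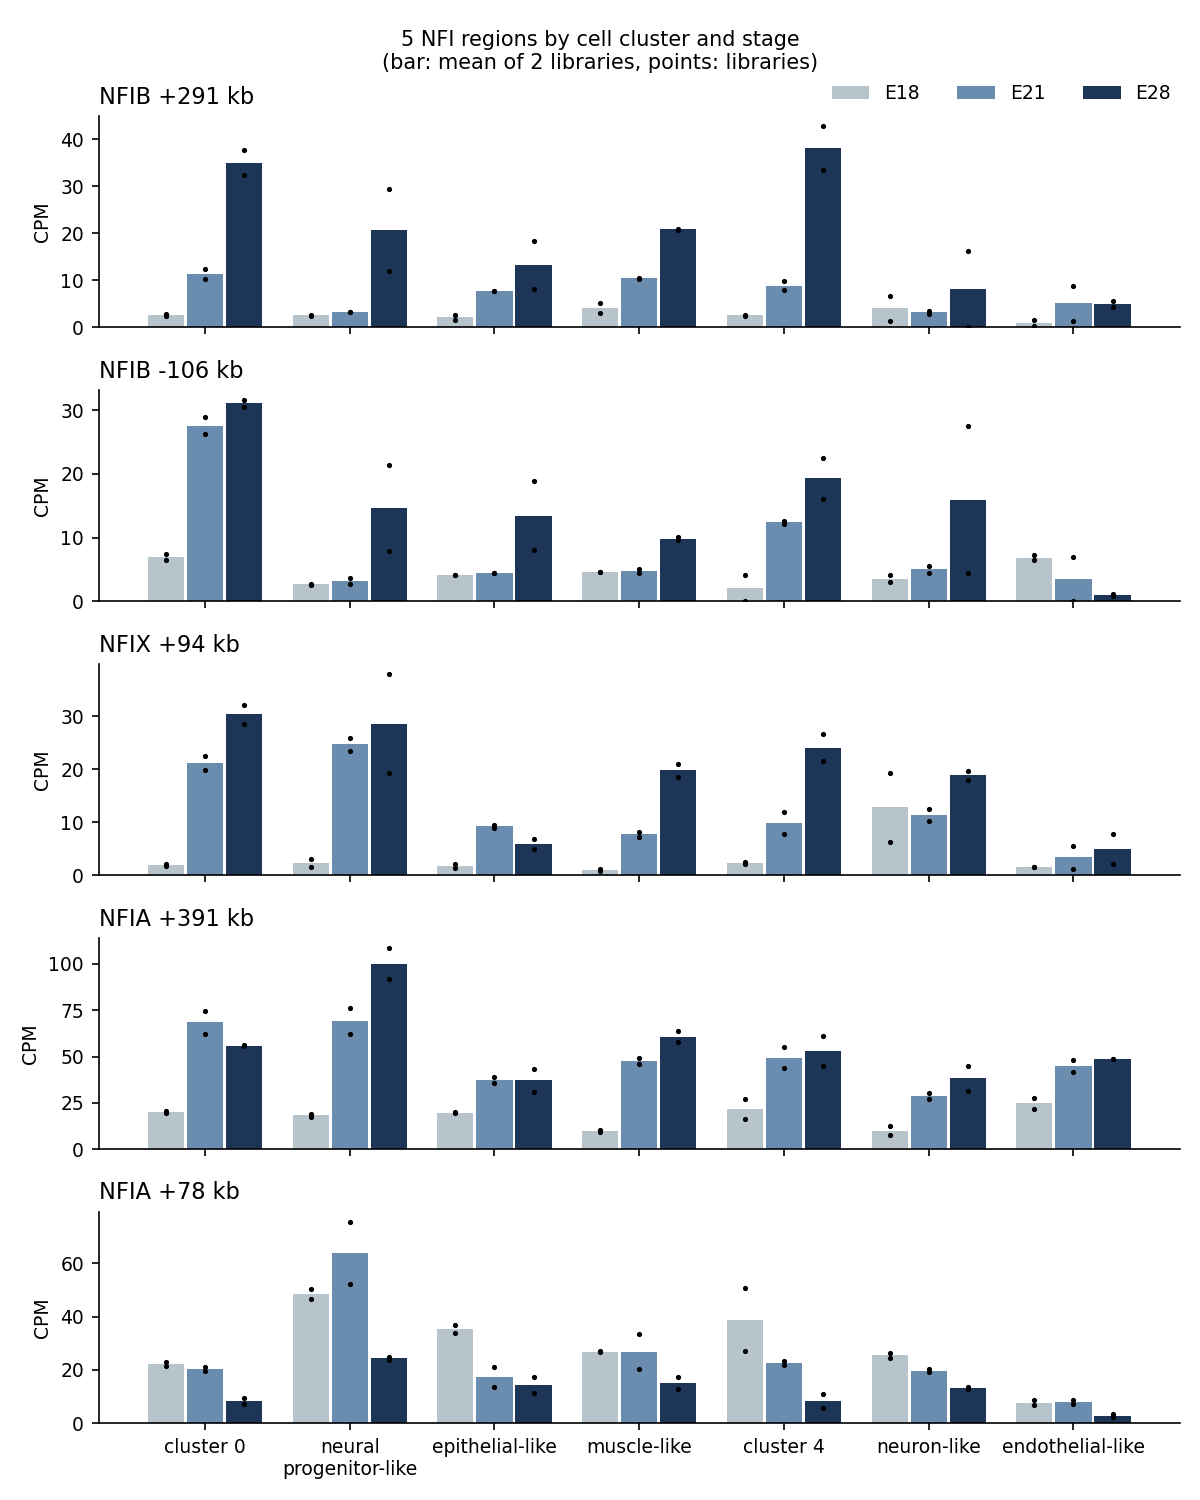
CPM of 5 NFI regions in the 7 cell clusters at E18, E21 and E28, with bars for the mean of the 2 libraries of a stage and points for the libraries. NFIB -106 kb reaches 26.2 and 28.9 CPM in cluster 0 by E21 and stays at 5.14 and 4.40 CPM in muscle-like cells until after E21.

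A stricter choice of muscle cells, from open muscle marker genes alone, held 923 barcodes, 61 to 270 per library, with 1284 barcodes near the limit. Against all other barcodes of the same library, the mean log2 ratio of summed CPM was -0.16 ± 0.07 (SD, n = 6 libraries) for NFIA, lower in 6 of 6 libraries (two-sided exact permutation test, p = 0.0312, the smallest that 6 libraries allow, adjusted p = 0.125). For NFIB it was -0.06 ± 0.12, for NFIC 0.10 ± 0.15 and for NFIX -0.10 ± 0.14. None of the 4 genes passed the adjusted threshold. The classes of the other marker lists held under 50 barcodes in at least 1 library and were not compared.

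Summed over whole gene windows (the gene body and 2 kb before its start, 23286 windows tested), all 4 NFI genes were called higher at E28 than at E18 and none lower, beside 20.6% and 21.8% of all windows, which for genes chosen by this rise is again a description. Leaving out 1 library left 1 of the 4 called without E18 DZ (1.33% of all windows higher), 2 without E18 ZZ (7.92%), and 3 without any other library (12.5% to 17.8%). The log2 change was 0.93 ± 0.09 for NFIB, 0.70 ± 0.09 for NFIA, 0.49 ± 0.10 for NFIX and 0.35 ± 0.09 for NFIC. Between the breeds no NFI window was called (edgeR, lowest adjusted p = 0.825). The windows most like each NFI gene over the 6 libraries, by the root mean square difference of centred log2 CPM among 15370 windows of named genes, were ETV4 for NFIA (0.042), LRRC17 for NFIB (0.068), ZNF286A for NFIC (0.040) and TMEM45A for NFIX (0.037). BMP5 and KAT6A came next for NFIB. FOXP3 and PPP1R3F, which share their values, came next for NFIA.

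Genes of the programmes in which NFI factors are known to act moved in both directions, in lists chosen with earlier results of these data known. Beside the 20.6% of all windows that were higher and the 21.8% that were lower, none of the lists is read as standing apart. Of 15 muscle programme genes 5 were called higher and 4 lower from E18 to E28 (median log2 change 0.09), where 1 of the 5, MSTN, had no peak at E18 and passed the filter through the later libraries alone. Of 12 glial and neural genes 1 was higher and 4 were lower (-0.06). Of 10 genes of developmental timing 1 was higher and 6 were lower (-0.56). The genes named next were picked for the largest changes among those called. Their stage values are thus a description and carry no test. Of the timing genes the largest change was that of LIN28A, an RNA-binding protein that blocks let-7 maturation and is switched off as embryos mature. Its window had 97.3 and 92.7 CPM at E18, 54.5 and 39.1 CPM at E21, and 17.8 and 15.0 CPM at E28, a log2 change of -2.57 ± 0.12. LIN28B (-1.66 ± 0.22), TRIM71 (-1.75 ± 0.12) and HMGA1 (-1.10 ± 0.15) fell as well. SLC1A3, a glutamate transporter of radial glia and astrocytes, rose by 1.28 ± 0.11. GFAP, an intermediate filament of astrocytes, fell by 1.62 ± 0.20 and MEF2A, a muscle transcription factor, by 1.95 ± 0.47. In all the genes named as falling, the called peaks also covered less sequence at E28. Those of TRIM71 covered 30.4 and 25.9 kb at E18 and 7.52 and 7.93 kb at E28. Those of MEF2A covered 4.0 and 3.84 kb, then 0.523 and 1.68 kb. The falls given here are not adjusted for covered length. MSTN, which limits muscle growth, had 1.97 and 4.06 CPM at E21 and 2.76 and 3.0 CPM at E28. Other families of transcription factor genes with long flanks were treated in the same way. From E18 to E28, FOXP had 24 higher and 23 lower of 108 regions. MEIS and PBX had 22 and 26 of 118, and SOXD had 15 and 21 of 83. Such region counts stand beside the 19% higher and 18.1% lower over all regions, not beside the window shares above. As the NFI family was chosen for its rise, it is not compared with these families.

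The sequences were searched in the middle 400 bp of the longest stretch that peaks of all 6 libraries cover. This was done in 111 NFI regions and 76673 regions in all, and 1860 tested regions had no such stretch. The single arm TTGGC was found in 67.6% of NFI regions (95% Wilson interval 58.4 to 75.6) and in 54.2% of all regions. The whole palindrome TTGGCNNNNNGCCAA was found in none of the 111 and in 51 of 76673. In the middle 200 bp TTGGC was in 40.5% (31.9 to 49.8) of NFI regions and 33.1% of all. ACAAAG, bound by SOX and TCF factors, was found in 35.1% (26.9 to 44.4) and 26.2%, but in the middle 200 bp in 14.4% of both. It is matched on the other strand (CTTTGT) in the printed bases of NFIB -106 kb. The E-box CAGCTG, bound by MYOD1 and related factors, was found in 33.3% and 32.7%, the AP-1 motif TGANTCA in 9.91% and 12.4%, the TEAD motif CATTCC in 25.2% and 24.6%, the homeodomain motif TAATTA in 8.11% and 6.65% and the GATA motif GATAAG in 8.11% and 8.58%. In NFIA +391 kb the printed match is TAATTA, and NFIB +291 kb and NFIA +78 kb hold no match in the printed bases. The regions of NFIA and NFIB were poor in G and C, with medians of 46.2% and 45.8%, and those of NFIC and NFIX rich, at 61.8% and 59.5%, beside 52.2% for all regions.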

How the data were processed

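The authors processed the reads with Cell Ranger ATAC against Sscrofa11.1 with Ensembl annotation, called peaks separately in each library, and deposited raw counts per peak and barcode. The processing notes also name Seurat 3.1.1 and Signac 0.2.2, whose output was not used here. Barcodes with 2000 to 30000 counts were kept, no doublet caller was run, and peaks of the 6 libraries were merged where they overlapped. Counts were summed per region and library and tested with edgeR 4.0.16 (quasi-likelihood, TMM, terms for stage and breed, 2 residual degrees of freedom, Benjamini-Hochberg over all regions), and with DESeq2 1.42.0 as an alternative. The 2 libraries of a stage are of different breeds, so p-values measure their spread after an additive breed term. Each pool holds 5 embryos, so the spread between embryos was not measured.

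The members and gene lists were chosen with earlier results of these data known. Regions were named by a rule: per gene, up to 3 at transcript starts (2 kb before to 200 bp after), the 4 largest changes among regions whose covered length lay within 1.5 times, and the 2 most accessible. This gave 28 regions, and 9 more were named after their values were seen. At the ends of the 300 kb flanks, the nearest regions inside held 0 to 8.46 CPM and those outside 0 to 67.6 CPM. Only muscle could be compared by the planned marker classes, so Leiden clusters (resolution 0.3, 30 components, 49323 regions, no region of the chromosomes of NFI genes) were added after the data were seen. Fits were tested on simulated data. The sequence of 1 region is not reported here.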

Additional observations from a re-analysis of the deposited data

Results flagged for a closer look

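A pair of results stood out. The promoter region NFIX +17 kb moved in opposite directions in the breeds, with a log2 ratio of CPM, E28 to E18, of -0.10 in ZZ and 0.47 in DZ (exact values -0.1009 and 0.4661). This difference was not tested, since each value rests on 1 library per stage, and 14 of the 113 tested NFI regions had opposite signs in the breeds. In peaks outside the shared regions, 31 NFI regions held a peak in both E28 libraries and in no E18 library, and these entered none of the region fits.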

How the results depend on the processing

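The covered length of the peaks and single libraries at E18 and E21 mattered most. From E18 to E28, counts of NFI regions called higher and lower were 71 and 6 with log covered length as an offset, beside 45.8% and 6.39% of all regions and a median log2 change of 0.43 over all of them, and 25 and 1 among regions of like length (21.8% and 4.81%). Leaving out 1 library gave 19 to 47 higher and 6 to 13 lower (6.19% to 19.2% and 4.93% to 20.1% of all regions), and ending the flanks at the first other gene gave 5 lower (18.1%). From E18 to E21 the counts were 33 and 2 with DESeq2 (11.7% and 6.44% of all), 28 and 3 with the offset (12.9% and 4.69%), 8 higher at like length (1.86%), and 0 to 35 higher and 0 to 3 lower without 1 library (0% to 12.9% and 0% to 8.88%). From E21 to E28 there were 18 higher and 13 lower with DESeq2 (8.45% and 11.2%), 45 higher and 4 lower with the offset (30.2% and 2.26%, with median log2 changes of 0.44 over the NFI regions and 0.33 over all), 1 lower at like length (0.667%), and 0 to 12 higher and 0 to 15 lower without 1 library (0% to 7.83% and 0% to 12.8%). Of the 4 gene windows, 1 to 3 were called from E18 to E28 without 1 library, beside 1.33% to 17.8% of all windows. With promoters alone 3 of the 4 were called higher, beside 14.1% of all promoters. From E18 to E21 there were 4 with DESeq2 (16.2%), 0 with promoters alone (0%) and 0 to 3 without 1 library (0% to 4.67%), and from E21 to E28 1 with DESeq2 (14.7%) and 4 with the offset (42.4%). With barcodes of 4000 to 60000 counts the median share of open barcodes was 6.97% in place of 5.81%. With cluster shares held at their mean, added after seeing the data, the NFIB ratio was 0.78. NFIB -157 kb turned to 0.17 with the offset, beside the median of 0.43 over all regions. NFIX +17 kb ranged from -0.25 without E28 DZ to 0.52 without E28 ZZ. Of 432 values of named regions, 390 stayed on their side of the threshold. Between the breeds no region was called under any alternative run. The breed term compares stages within breeds, and without it 43 NFI regions were higher and 10 lower from E18 to E28 (19.4% and 18.0% of all). No paired analysis was possible because each group holds 1 library, beyond this pairing by breed.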
